A study of Homo sapiens with 6 samples.

Results

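The zinc finger genes of human chromosome 19 were examined in the breast cancer line MDA-MB-231, of the triple-negative type, with and without knockdown of the pseudouridine synthase PUS1. The family was defined by name and place, as every gene on chromosome 19 whose symbol is ZNF followed by a number and nothing else, which gave 242 of the 60605 genes listed. Polyadenylated RNA was sequenced from 3 shControl cultures, carrying a control hairpin, and 3 shPUS1 cultures, carrying a hairpin against PUS1, labelled as biological replicates. Both groups were the same line, transduced with puromycin-resistant lentiviral hairpin vectors and selected with puromycin, so the control cells carry vector and selection as well. The column names of the shPUS1 libraries carry the words PUS1-knockdown-2, which the sources used here do not tie to a named hairpin. Whether the replicates were separate selections is not given in them, so the p-values measure the spread between these libraries. The question was how the family behaved under PUS1 knockdown, as a whole, by genomic cluster and gene by gene.

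Most zinc finger proteins of chromosome 19 join an array of classical zinc fingers, each of which folds around a zinc ion held by a pair of cysteines and a pair of histidines and reads a few bases of DNA, to an N-terminal KRAB domain. The KRAB domain binds the corepressor TRIM28, which brings in the histone methyltransferase SETDB1 and HP1 proteins, so that many of these proteins act as DNA-bound repressors, and a large share of them bind transposable elements. The genes arose by repeated tandem duplication and still lie in clusters, and their coding sequences can be alike enough for short reads to fit more than one of them.

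By the orthology entries in the deposited table, 222 of the 242 genes belonged to the KRAB zinc finger group. The entry names an orthology group and was not checked against a KRAB domain in each protein. ZNF146, a protein built almost only of fingers, carries it as well. In the GENCODE release 29 annotation all 242 were found and 241 were protein coding. The longest coding sequence of each gene was searched for the finger spacing (a cysteine codon, 2 codons, a cysteine codon, 12 codons, a histidine codon, 3 to 5 codons and a histidine codon), and the median was 12 such fingers per gene. The number reached 36 in ZNF208. ZNF114, the gene with the clearest difference between the groups, had 3. Its fingers are printed from GENCODE release 29 (GRCh38, plus strand, exon 6 of 6, coding sequence), 5′ to 3′, with the cysteine and histidine codons in capitals, beside the first finger of 3 other genes described here.
ZNF114 finger 1, chr19:48286540-48286602: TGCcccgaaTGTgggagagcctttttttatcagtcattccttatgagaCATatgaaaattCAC
ZNF114 finger 2, chr19:48286624-48286686: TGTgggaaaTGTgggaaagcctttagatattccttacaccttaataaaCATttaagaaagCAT
ZNF114 finger 3, chr19:48286792-48286854: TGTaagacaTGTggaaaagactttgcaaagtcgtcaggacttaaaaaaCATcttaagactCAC
ZNF112 finger 1, chr19:44328534-44328596, minus strand: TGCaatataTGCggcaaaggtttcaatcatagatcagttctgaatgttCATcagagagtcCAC
ZNF333 finger 1, chr19:14718429-14718491: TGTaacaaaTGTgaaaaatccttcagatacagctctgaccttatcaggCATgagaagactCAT
ZNF628 finger 1, chr19:55481305-55481367: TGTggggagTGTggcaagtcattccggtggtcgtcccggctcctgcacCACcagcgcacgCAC
The search fixed the spacing of the capitals except for the last gap, which was 3 codons in all 6. The bases between the capitals differ. Fingers 2 and 3 of ZNF114 were identical to finger 1 at 61.9% and 58.7% of 63 bases, and the first fingers of ZNF333, ZNF112 and ZNF628 at 58.7%, 52.4% and 44.4%. The ZNF114 transcripts shared 0.0% of their 100-base stretches with other genes, whereas ZNF709 shared 79.0%.

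The libraries held 15003203, 19625998 and 14241505 assigned counts in shControl and 18233530, 18335152 and 17109464 in shPUS1. PUS1, the targeted gene, was at 14.5, 27.5 and 12.1 CPM (counts scaled to a common library size) in shControl and at 6.57, 5.47 and 5.37 CPM in shPUS1. The groups did not overlap, and PUS1 fell by 1.64 on the log2 scale (SE 0.32, edgeR adjusted p = 0.0462). PUS1 was called in 11 of 18 fits, this one included, that differed in settings or left a library out, and its difference was negative in all of them (-1.86 to -1.0). One library stood apart: shControl replicate 2 correlated with the other shControl libraries at 0.9505 and 0.9521 over the log2 CPM of all genes tested, against 0.981 between the other pair and 0.9872 to 0.9906 among the shPUS1 libraries. It also had the highest PUS1 level. The main calls and medians are therefore given with it and without it. Without it the PUS1 difference was -1.20 (adjusted p = 0.00311).

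The family was expressed at low levels. The median of the mean FPKM (fragments per kilobase of exon, scaled to library depth, and so comparable between genes) was 1.33 over all 242 genes, and 153 reached a mean of 1 FPKM. Over all 6 libraries ZNF146 had the highest mean at 47.0 FPKM, followed by ZNF114 at 43.9, ZNF581 at 14.6 and ZNF428 at 12. The order of ZNF146 and ZNF114 depended on the group. ZNF146 led in shControl (43.3 FPKM against 18.2 for ZNF114) and ZNF114 in shPUS1 (69.6 FPKM against 50.7). The shControl mean of ZNF428 was above that of ZNF581 (14.7 and 13.6 FPKM) through shControl replicate 2 alone (24.6 and 6.47 FPKM). In shControl replicates 1 and 3, ZNF581 was above ZNF428. ZNF146, a protein built almost only of fingers, lay at 206.8, 162.5 and 164.9 CPM in shControl and at 202.3, 205.8 and 227.9 CPM in shPUS1. These ranges overlapped and the difference was 0.25 on the log2 scale (95% interval -0.064 to 0.57, edgeR adjusted p = 0.281).

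For 211 of the 242 genes the counts were high enough to be tested, by a filter run over the whole table. The other 31 never exceeded 17 counts in a library, and 13 of them had no count in any library. A count of 0 allows up to 3 counts in a library, or 0.153 to 0.211 CPM before scaling, and covers counting error only. Of these 13 genes, 9 lay in the cluster near the centromere on the short arm, namely ZNF208, ZNF676, ZNF729, ZNF98, ZNF492, ZNF99, ZNF723, ZNF728 and ZNF730. They included ZNF208, which has the most fingers. Their neighbour ZNF91, with 31 fingers, was expressed and tested.

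ZNF114 is a KRAB zinc finger gene at chr19:48270081-48287608 on the plus strand. It was the one gene of the family called in the main edgeR fit, on all 6 libraries after the filter on low counts. Some other edgeR fits of these libraries called further members, as given below. ZNF114 lay at 65.9, 49.3 and 47.9 CPM in shControl and at 202.7, 203.4 and 229.4 CPM in shPUS1. Every shPUS1 library was far above every shControl library, and shControl replicate 2 lay in the middle of its group. The means were 54.4 ± 10.0 CPM (SD, n = 3) and 211.8 ± 15.2 CPM (SD, n = 3). ZNF114 rose by 1.96 on the log2 scale (SE 0.16, 95% interval 1.59 to 2.33, edgeR adjusted p = 0.00642), and by 1.89 (adjusted p = 0.00043) without shControl replicate 2. In FPKM, the group means were 18.2 and 69.6. Without shPUS1 replicate 3 the difference was 1.90 and the adjusted p was 0.0555, in an edgeR fit that called 0 genes although 2581 had an unadjusted p under 0.05.

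The genes around ZNF114 did not share this difference. Of those starting or ending within 100 kb of it, 8 named genes were tested and none was called with all libraries. CARD8, an inflammasome sensor, lay at 26.4, 21.4 and 28.9 CPM in shControl and at 21.9, 22.9 and 20 CPM in shPUS1, and its difference of -0.24 had an adjusted p of 0.364 (0.0484 without shControl replicate 2). KDELR1, a receptor that returns proteins to the endoplasmic reticulum, differed by 0.11 (SE 0.12, edgeR adjusted p = 0.599). LIG1, a DNA ligase of replication, differed by -0.68 (SE 0.27, adjusted p = 0.165), with 73.1 CPM in shControl replicate 2 against 30.3 to 40.2 CPM in the other libraries. ZNF114-AS1, which overlaps the start of ZNF114 on the opposite strand, did not exceed 0.393 CPM in any library. The library kit and the counting were not stated to keep strand.

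**Figure D1:**
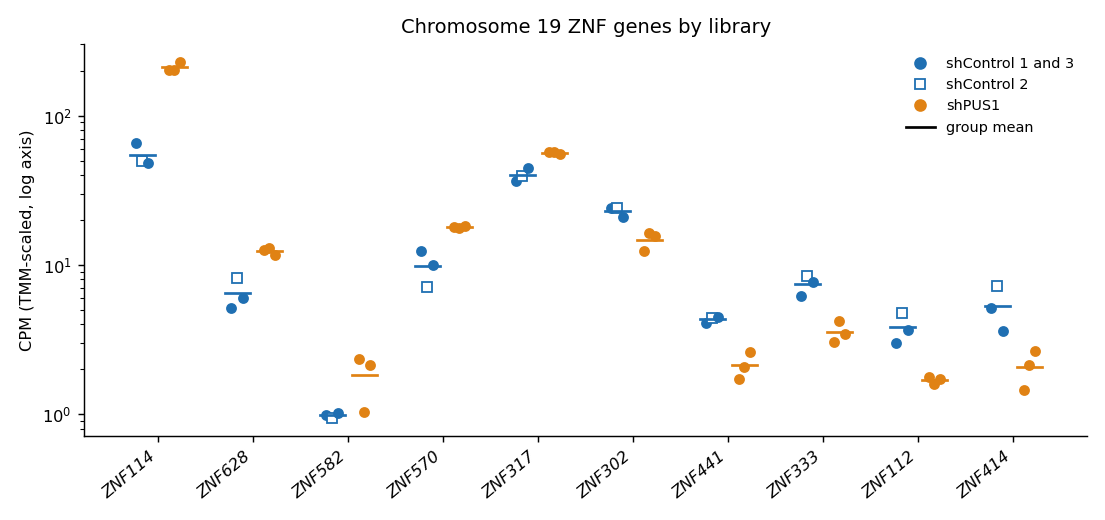
CPM on a log axis in each library for 10 chromosome 19 ZNF genes; blue marks shControl (open square, replicate 2), orange marks shPUS1, and each line is the mean of 3 libraries. ZNF114 shows the widest gap, with 47.9 to 65.9 CPM in shControl and 202.7 to 229.4 CPM in shPUS1.

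ZNF114 apart, the main edgeR fit called no gene of the family. DESeq2 called 12 of the 211, ZNF114 included (6 higher and 6 lower, 5.69%, against 12.7% of all genes). Without the filter on low counts edgeR called 6 of 229, again with ZNF114 (2.62%, against 4.75% of all genes). With all 6 libraries 1 of 211 genes was called higher and none lower (edgeR, adjusted p under 0.05), or 0.474%, where 2.58% of the 14748 genes tested were called in either direction and 1.74% were called higher. At an unadjusted p under 0.05 the family held 15 higher and 16 lower genes, or 14.7%, against 25.5% of all genes. In the main fit ZNF114 was also the one gene called with at least a doubling or halving, a call made for 1.37% of all genes. The median log2 fold change was -0.0064 for the family (quartiles -0.23 and 0.25) and -0.034 for all genes, and without shControl replicate 2 these medians were -0.073 and -0.021.

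The precision behind this was moderate. For 142 of the 211 genes (67.3%) the 95% interval of the log2 fold change lay wholly within 1 of zero, as for 60.6% of all genes tested. The median level of the tested family members was 9.22 CPM, against 23.6 CPM for all genes, and their median SE was 0.23 against 0.21. What these lower levels contributed to the lower share of calls was not tested. Fold change and level moved together across the family: Spearman's rho of log2 fold change with mean CPM was 0.36 over 211 genes and 0.11 over 14748 genes, a description across genes that share the same libraries.

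**Figure D2:**
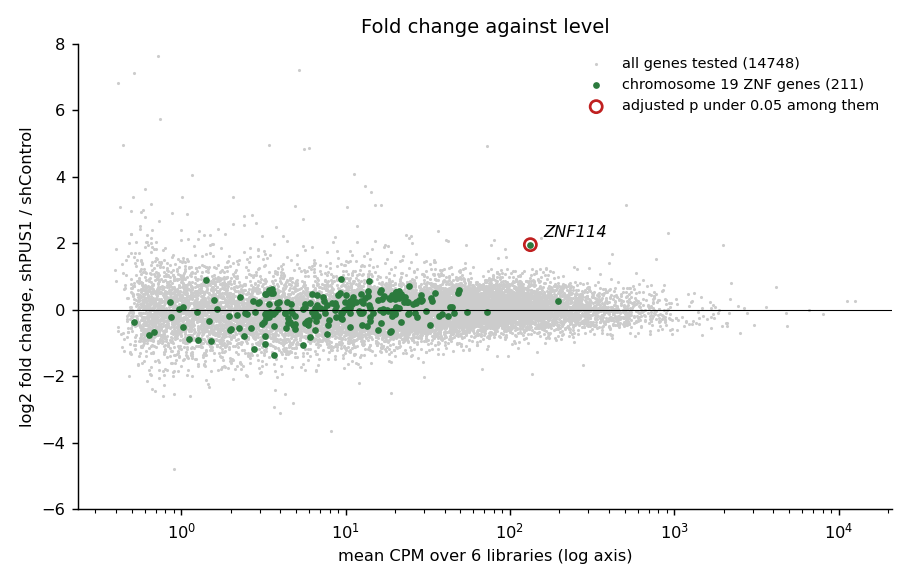
Log2 fold change (shPUS1 over shControl) against mean CPM over 6 libraries on a log axis, with all 14748 tested genes in grey and the 211 chromosome 19 ZNF genes in green; the red ring marks adjusted p under 0.05. ZNF114, at 1.96, lies apart from the other genes of the family, whose values run from -1.35 to 0.93.

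The summed level of the family was read with and without ZNF114. The 242 genes together took 2850.8, 2498.5 and 2937.6 CPM in shControl and 3059.0, 3096.0 and 3118.1 CPM in shPUS1, so the groups did not overlap, and shControl replicate 2 was the lowest library. With ZNF114 left out, the sums were 2707.9 ± 230.1 CPM (SD, n = 3) in shControl and 2879.2 ± 19.9 CPM (SD, n = 3) in shPUS1. Their ranges, 2449.2 to 2889.7 CPM and 2856.4 to 2892.6 CPM, then overlapped through the highest control, shControl replicate 3, with or without shControl replicate 2.

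Below ZNF114 stood a set of genes whose groups did not overlap but whose adjusted p was above 0.05 with all libraries. Among the family, 35 genes had every shPUS1 library above every shControl library and 31 the reverse, where 18.8% and 17.3% of all genes tested did so. The 2 directions together made up 31.3% of the family. The largest positive differences after ZNF114 belonged to ZNF628, ZNF582 and ZNF570.

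ZNF628, a finger-rich gene without a KRAB entry, lay at 5.17, 8.18 and 6.0 CPM in shControl and at 12.5, 12.9 and 11.6 CPM in shPUS1. Its highest shControl value was replicate 2, and all shPUS1 libraries were above it. The difference was 0.93 on the log2 scale (SE 0.22, edgeR adjusted p = 0.0614), and 1.13 (adjusted p = 0.00284) without shControl replicate 2. ZNF570, a KRAB gene, lay at 12.4, 7.08 and 10.0 CPM against 18.0, 17.6 and 18.2 CPM, with a difference of 0.87 (SE 0.22, adjusted p = 0.0729). Its shControl replicate 2 was the lowest library, and without it ZNF570 rose by 0.67 (adjusted p = 0.0129). ZNF570 overlaps ZNF569 on the opposite strand. ZNF582 was close to 1 CPM in all shControl libraries (0.982, 0.944 and 1.02) and at 2.34, 1.04 and 2.12 CPM in shPUS1, where replicate 2 barely cleared the control range, and its adjusted p was 0.202. ZNF582 overlaps the pseudogene ZNF542P on the opposite strand. ZNF542P lay higher, at 7.36 to 16.5 CPM, and was above every shControl library in every shPUS1 library. Its part in the counts of ZNF582 was not tested.

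The largest negative differences belonged to ZNF414, ZNF112, ZNF333 and ZNF441, all of them weakly expressed. ZNF414, which has a single finger by the spacing used here, lay at 5.11, 7.18 and 3.61 CPM in shControl and at 1.45, 2.13 and 2.66 CPM in shPUS1. Its difference was -1.35 (SE 0.35, edgeR adjusted p = 0.0761). ZNF112 lay at 3.01, 4.77 and 3.68 CPM against 1.78, 1.59 and 1.71 CPM, a difference of -1.17 (SE 0.28, adjusted p = 0.0647). In both genes shControl replicate 2 was the highest library, and without it both fell, by 1.08 (adjusted p = 0.0435) and 0.99 (adjusted p = 0.0316).

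ZNF333 encodes a KRAB protein with 10 fingers. It lay at 6.22, 8.49 and 7.63 CPM in shControl and at 3.06, 4.21 and 3.42 CPM in shPUS1, a difference of -1.06 (SE 0.23, edgeR adjusted p = 0.0574). ZNF441, a KRAB gene with 14 fingers, had the tightest controls of these 4, at 4.06, 4.4 and 4.5 CPM, against 1.72, 2.08 and 2.60 CPM. Its difference was -1.02 (SE 0.26, adjusted p = 0.0736), and both genes fell without shControl replicate 2, by 0.96 (adjusted p = 0.0172) and 1.01 (adjusted p = 0.0294).

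Without shControl replicate 2, members were called in both directions. The log2 fold change was positive in 42.1% of the members tested, against 47.9% of all genes, and this difference was not tested. The fit then called 21 of 214 genes (9.81%), 9 higher and 12 lower, where 18.6% of 15130 genes were called, 9.8% higher and 8.79% lower. Those with at least a doubling or halving were 5, namely ZNF114, ZNF628, ZNF578, ZNF414 and ZNF441, against 3.28% of all genes. The fit shares 5 of the 6 libraries with the first one, in which ZNF578 was too low to be tested.

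The 9 genes that rose without shControl replicate 2 were ZNF114, ZNF628, ZNF570, ZNF45, ZNF317, ZNF580, ZNF211, ZNF776 and ZNF578. ZNF317, a broadly expressed KRAB gene, lay at 36.3, 39.5 and 44.4 CPM in shControl and at 56.8, 57.1 and 55.6 CPM in shPUS1. Its shControl replicate 2 was in the middle of its group, and the difference was 0.50 with that library (SE 0.13, edgeR adjusted p = 0.0729) and 0.48 without it (adjusted p = 0.0208). ZNF580 lay at 14.5 to 18.4 CPM against 21.3 to 23.3 CPM and rose by 0.54 (adjusted p = 0.0158) without that library. It overlaps ZNF581 on the same strand, and ZNF581 had 10.9 CPM in shControl replicate 2 against 25.3 to 29.5 CPM in every other library. ZNF578 rested on 3, 0 and 2 counts in shControl and 10, 17 and 14 in shPUS1.

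The 12 genes that fell without that library were ZNF414, ZNF558, ZNF441, ZNF439, ZNF700, ZNF333, ZNF302, ZNF546, ZNF112, ZNF83, ZNF419 and ZNF606. ZNF558, a KRAB gene, lay at 19.4, 14.6 and 23.2 CPM in shControl and at 13, 13 and 11.5 CPM in shPUS1, and fell by 0.77 (edgeR adjusted p = 0.00647). ZNF606 lay at 7.40, 6.66 and 9.20 CPM against 3.78, 4.65 and 4.66 CPM and fell by 0.93 (adjusted p = 0.0129). For ZNF558 and ZNF606 the groups did not overlap with or without shControl replicate 2, whereas for ZNF83, ZNF546 and ZNF419 they overlapped once it was counted. ZNF83 was at 49.9 and 51.2 CPM in shControl replicates 1 and 3 and at 20.2 CPM in replicate 2, on the other side of the shPUS1 range of 35.6 to 38.3 CPM. ZNF546 showed the same pattern, with 9.10 and 10.4 CPM, then 4.30 CPM, around an shPUS1 range of 4.40 to 5.73 CPM.

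By the starts of successive genes, with a gap of over 1 Mb opening a new cluster, the family fell into 9 clusters of at least 5 genes and 9 scattered genes, ZNF114 and ZNF333 among the latter. The largest was cluster 9, at 55.48 to 58.48 Mb near the end of the long arm, with 57 genes. Cluster 8 (51.57 to 53.58 Mb) held 39 and cluster 4 (19.67 to 24.13 Mb) held 38. No gene inside a cluster was called with all 6 libraries by edgeR after the filter on low counts, whereas without the filter the 6 members called included genes of clusters. At an unadjusted p under 0.05, cluster 9 held 5 higher and 3 lower genes, cluster 8 held 3 and 2, and cluster 4 held 2 and 2, of 52, 36 and 25 tested, each a smaller share than the 25.5% of all genes. Cluster 5 held 1 and 2 of 5 tested and the scattered genes 1 and 1 of 7, larger shares of few genes. Cluster 4 had the smallest share of genes tested, 25 of 38 (65.8%), whereas cluster 3 (11.48 to 12.64 Mb) had all 25 tested.

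Cluster medians of the log2 fold change were small and depended on shControl replicate 2. For 8 of the clusters they lay between -0.11 and 0.13 with all libraries, the lowest of these in cluster 4 and the highest in cluster 8. Cluster 4 was at -0.11 with that library and 0.047 without it, and cluster 9 went from 0.077 to -0.068. Single genes led some clusters without a call. ZNF682, first by p in cluster 4, lay at 1.64 to 1.68 CPM in shControl and at 0.826 to 0.985 CPM in shPUS1 (-0.90, edgeR adjusted p = 0.13). ZNF28, first in cluster 8 and overlapping ZNF468 on the same strand, lay at 12.3 to 20.1 CPM against 23.4 to 24.4 CPM (0.54, adjusted p = 0.144). ZNF77, first in cluster 1, lay at 3.07 to 3.93 CPM against 2.46 to 2.89 CPM (-0.44, adjusted p = 0.30). In all 3 genes the groups did not overlap. Cluster 5 (34.68 to 34.96 Mb, 5 genes) had the lowest median, -0.53 with all libraries and -0.38 without shControl replicate 2.

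In cluster 5, ZNF302, a KRAB gene, lay at 24.2, 24.0 and 20.8 CPM in shControl and at 12.4, 16.4 and 15.5 CPM in shPUS1. The groups did not overlap, and the difference was -0.64 (SE 0.17, edgeR adjusted p = 0.0768). Without shControl replicate 2 it fell by 0.62 (adjusted p = 0.0238). Its neighbours ZNF181, ZNF599 and ZNF30 had differences of -0.58, -0.53 and -0.36 and adjusted p-values of 0.175 to 0.418. ZNF792, in the same cluster, had the opposite sign, at 13, 14.2 and 17.2 CPM against 19, 21.1 and 18.3 CPM (0.40, adjusted p = 0.189). The median absolute difference between the log2 fold changes of 2 genes was 0.337 over 195 neighbouring pairs of the family and 0.373 over all 3104 pairs within clusters, these included, and the difference was not tested. Some neighbouring pairs, such as ZNF28 and ZNF468, overlap and may share reads, and they were not set apart.

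**Figure D3:**
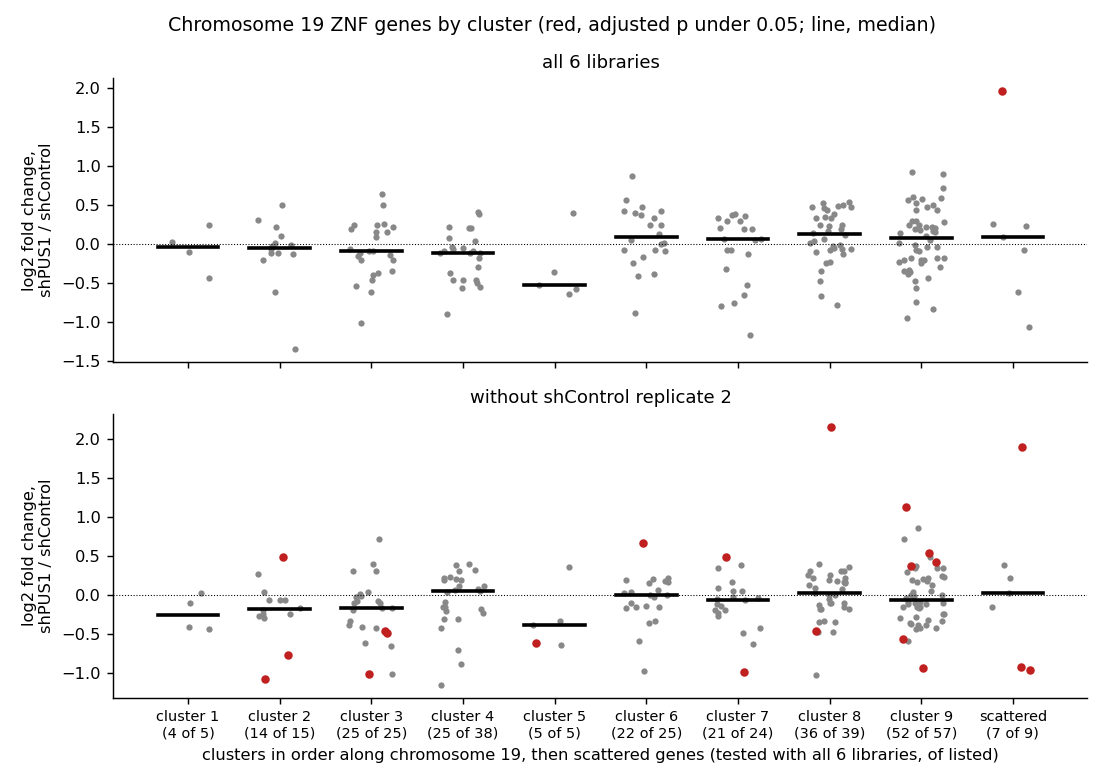
Log2 fold change (shPUS1 over shControl) of each tested chromosome 19 ZNF gene by cluster, with all 6 libraries above and without shControl replicate 2 below; black lines are medians and red points have adjusted p under 0.05. The one red point above is ZNF114, and the 21 below lie in 8 of the 10 columns on both sides of zero.

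The position of shControl replicate 2 differed from cluster to cluster, which was not tested. Over the 211 tested genes, shControl replicate 2 was below the mean of shControl replicates 1 and 3 by a median of -0.24 on the log2 scale, while the median was 0.02 for all genes and 0.0034 for ZNF genes on other chromosomes. It was 0.26 for the other zinc finger symbols of chromosome 19 and -0.056 for its other protein-coding genes. The share of genes past a doubling or halving in that library was 15.2% in the family and 16.4% over all genes. The shift was -0.65 in cluster 1, which has 4 tested genes, -0.49 in cluster 6 and -0.41 in cluster 8, where 29 of 36 genes were below, but 0.22 in cluster 4. The extreme genes were ZNF709, with 62, 0 and 62 counts in shControl, and ZNF571, at 3.93, 0.734 and 3.61 CPM. ZNF709 was also at 60, 1 and 101 counts in shPUS1, and its large share of stretches found in other genes makes its counts uncertain. In the other direction, ZNF428 was at 15.9, 39.2 and 13.6 CPM in shControl and at 12.1, 14.7 and 16.8 CPM in shPUS1, and its difference went from -0.66 to -0.027 without that library.

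**Figure D4:**
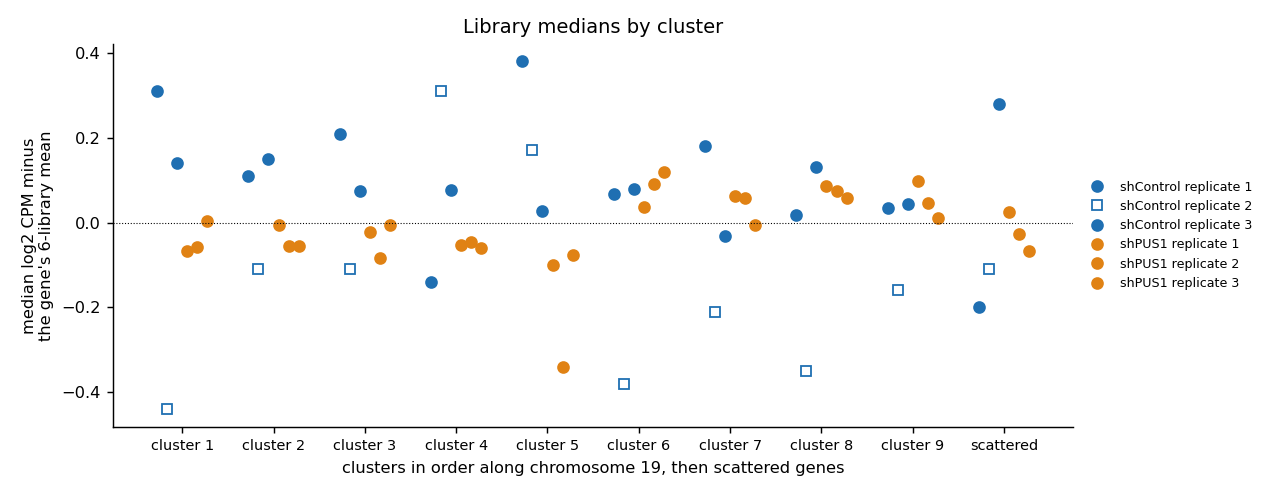
Median over the tested genes of each cluster of log2 CPM minus the gene's mean over 6 libraries, one mark per library. The open square, shControl replicate 2, lies at -0.44 in cluster 1, -0.38 in cluster 6, -0.35 in cluster 8 and 0.31 in cluster 4, while the shPUS1 libraries lie between -0.34 and 0.12.

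Other gene sets were read beside the family. The ZNF genes on other chromosomes (205 of 236 tested) held 1 higher and 3 lower calls with all libraries (1.95%, against 2.58% of all genes). Without shControl replicate 2 they held 17 and 17 (16.4%, against 18.6% of all genes). Their medians were 0.0047 and 0.01. Other zinc finger symbols on chromosome 19, such as ZFP, ZSCAN and lettered ZNF names, had 22 of 39 tested and no edgeR call with all libraries. At an unadjusted p under 0.05 they held 1 higher and 2 lower (13.6%, against 25.5% of all genes). The pseudogene ZNF542P led them, at 8.84, 9.91 and 7.36 CPM in shControl and 13.7, 15.4 and 16.5 CPM in shPUS1 (0.80, SE 0.18, adjusted p = 0.0598, and 0.0066 without shControl replicate 2). It overlaps ZNF582 of the family on the opposite strand, so the differences of these genes may not be separate. ZNF780B had a difference of -0.70 (edgeR adjusted p = 0.184), and of -0.34 (adjusted p = 0.205) without shControl replicate 2. The other protein-coding genes of chromosome 19 held 5 higher and 6 lower calls among 707 (1.56%), and 60 and 65 among 719 (17.4%) without shControl replicate 2. The differences between these sets were not tested.

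Within the family, features of the genes separated the fold changes little. The median log2 fold change was -0.00096 for the 193 tested genes with a KRAB entry and -0.058 for the 18 without one, an order that turned without shControl replicate 2 (-0.078 and -0.025). Spearman's rho of the log2 fold change with the number of fingers was 0.16 over 211 genes, and 0.09 without shControl replicate 2. Of the tested genes, 15 had 20% or more of their 100-base stretches in common with other genes; edgeR called none of these with or without shControl replicate 2, and with all libraries none had an unadjusted p under 0.05. Over all genes these shares were 2.58%, 18.6% and 25.5%, and 15 genes are few to read them from. Of the tested members, 40 overlap another member. Overlaps with genes outside the family, such as ZNF582 with ZNF542P and ZNF83 with ZNF137P, are not in this count. Reads from overlapping genes could not be assigned with certainty.

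Promoters of the family were searched for short motifs. In RefSeq (GRCh38.p14), 261 promoters of 300 bases, from 250 before to 50 after a start, were found for 210 of the genes. The letters CCGGAAG, the core bound by ETS transcription factors, were present on either strand in 104 of them (39.8%), against 10.3% of all 35116 promoters. The latter belong to 27305 genes and were not restricted here by gene type, whereas nearly all members are protein coding. The letters AAGATGG, part of the element read by YY1, were present in 8.81% and 5.84%. Promoters of the family also held more CG dinucleotides (median 20 against 14), which the ETS letters contain, and the part of this in the first difference was not tested. Short windows upstream of a start are printed for the named genes that hold the ETS letters, 5′ to 3′ on the gene's strand, with these letters or their reverse complement CTTCCGG in capitals.
ZNF558, chr19:8832343-8832369, minus strand: cccgcgcgagCCGGAAGgggacgtgca
ZNF682, chr19:20039343-20039369, minus strand: ccacgacatcCCGGAAGccgaaaaatg
ZNF302, chr19:34677600-34677626, plus strand: cggttcgcggCTTCCGGgacatttgta
ZNF570, chr19:37469501-37469527, plus strand: gtgtgggtctCCGGAAGctcgtcgcag
ZNF580, chr19:55640980-55641001, plus strand: ggctcgcgcgCTTCCGGccggc
ZNF582, chr19:56393594-56393620, minus strand: actatgtttcCCGGAAGacactgcggc
ZNF606, chr19:58002857-58002883, minus strand: ctgcccgacgCCGGAAGtgcccgcctg
The genes listed include both signs of difference: ZNF570, ZNF580 and ZNF582 were at 0.87, 0.44 and 0.90, and ZNF558, ZNF682, ZNF302 and ZNF606 at -0.61, -0.90, -0.64 and -0.83. Among the tested members sorted by these letters, the median log2 fold change was 0.01 for the 89 with the letters and -0.031 for the 99 without (-0.022 and -0.11 without shControl replicate 2). These sets leave out some tested members, ZNF114 among them. A match is a description of the sequence and not a site shown to be bound.

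The machinery that KRAB proteins use was expressed in both groups. Of 31 corepressor and heterochromatin genes listed, 30 were tested and none was called with all libraries by edgeR (4 higher and 3 lower at an unadjusted p under 0.05, where 25.5% of all genes passed). TRIM28, the KRAB corepressor itself, lay at 282.5, 401.6 and 287.3 CPM in shControl and at 263.3, 270.0 and 267.1 CPM in shPUS1. The difference was -0.28 (SE 0.16, edgeR adjusted p = 0.298), and -0.10 without shControl replicate 2, which was the highest library. SETDB1, the histone methyltransferase that TRIM28 recruits, lay at 26.8, 31.5 and 33.5 CPM against 24.6, 22.2 and 24.3 CPM (-0.37, adjusted p = 0.163).

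Among the other chromatin genes, without shControl replicate 2 DNMT3B and MPHOSPH8 rose and UHRF1 fell, 3 of 30 genes where 18.6% of all genes were called. DNMT3B, a de novo DNA methyltransferase, lay at 12.2, 14.7 and 16.3 CPM in shControl and at 21.8, 21.2 and 19.2 CPM in shPUS1 (0.53, edgeR adjusted p = 0.109, and 0.0353 without that library). UHRF1, which guides maintenance DNA methylation, was at 244.4 CPM in shControl replicate 2 against 60.9 and 56.8 CPM in the other controls and 44.7 to 48.5 CPM in shPUS1. Its difference went from -1.38 (adjusted p = 0.16) to -0.35 (adjusted p = 0.0368) without that library. DAXX and ATRX, partners that deposit a histone variant at repeats, had differences of 0.45 and 0.56 (adjusted p = 0.105 and 0.119).

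Markers of the line and of other cells were read beside these results. VIM, CD44, AXL, EGFR and SNAI2, which mark this mesenchymal-like line, were expressed in every library, and none was called by edgeR with all libraries. At an unadjusted p under 0.05, AXL, VIM and CD44 were lower (-0.60, -0.50 and -0.29) and SNAI2 was higher (0.80). Without shControl replicate 2 AXL and VIM fell (adjusted p = 0.014 and 0.0305) and SNAI2 rose (adjusted p = 0.00129). Of all genes, 25.5% passed the unadjusted limit with all libraries and 18.6% were called without that library. Of 6 markers listed as low or absent in this line, ESR1, PGR and CDH1 had mean FPKM of 0.0283, 0.00333 and 0.113, while ERBB2, EPCAM and GATA3 were detected in every library at means of 5.67, 2.72 and 1.91 FPKM. Among leukocyte markers, CD3E was at 0 in every library, PTPRC had a mean of 0.005 FPKM, and CD14 was the most abundant at 2.28 FPKM. The 4 fibroblast markers summed to 48.4, 16.6 and 60.1 CPM in shControl and to 86.8, 95.9 and 82.0 CPM in shPUS1. PDGFRB was the most abundant at 5.69 FPKM, and DCN, at 0.00833 FPKM, was too low to be tested. LUM rose by 2.82 (edgeR adjusted p = 0.0462) from a low level. It lay at 1.11, 0.157 and 0.545 CPM in shControl and at 3.45, 4.65 and 4.54 CPM in shPUS1. COL1A1 and PDGFRB had differences of 1.11 and 1.0 (edgeR adjusted p = 0.11 and 0.195). All 3 were higher at an unadjusted p under 0.05, and all 3 rose without shControl replicate 2. Over all genes the shares, in either direction, were 25.5% and 18.6%. The 3 endothelial markers summed to at most 7.15 CPM in any library.

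RNA composition was read in the same way. None of 78 ribosomal protein genes was called by edgeR with all libraries, but 46 were lower at an unadjusted p under 0.05, as were 1895 of all 14748 genes. The median log2 fold change of the 78 was -0.37. Without shControl replicate 2 19 of them fell, where 8.79% of all genes were called lower. No mitochondrial mRNA of 13 passed an unadjusted p of 0.05. The nuclear RNA MALAT1 was lowest in shControl replicate 2, at 82.6 CPM against 128.7 to 275.0 CPM in the other libraries. Its difference was -0.16, and -0.49 without that library (edgeR adjusted p = 0.209). NEAT1, another nuclear RNA, was at 205.6, 118.1 and 214.5 CPM in shControl and at 129.5, 163.2 and 126.3 CPM in shPUS1, and fell by 0.60 without shControl replicate 2 (edgeR adjusted p = 0.0137). The part of these markers in the family's values was not tested.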

How the data were processed

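Polyadenylated RNA of the MDA-MB-231 line was analysed in 6 libraries, 3 per group. The authors' processing notes name HISAT2 and HTSeq 0.6.1; the annotation and the strand setting are not given in the sources used here. The deposited table holds estimated counts (29.8% to 31.8% of values above zero in a library were not whole, and they were rounded here) and FPKM computed by the authors from counts and exonic length. Its exonic lengths, a gene property of another unit, were deposited with them and used for the length trend. From the authors' own annotation, the symbol, chromosome and position columns defined the family and its clusters, and the orthology entries gave the KRAB group. Among the per-sample values, 0 columns lacked a sample.

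Counts of all 60605 genes were filtered (filterByExpr), scaled (TMM) and tested with edgeR 4.0.16 (quasi-likelihood, R 4.3.3), with Benjamini-Hochberg adjustment over the 14748 genes kept. The SE is the log2 fold change over the square root of F, and intervals are 95%. The biological coefficient of variation was 0.22. CPM are scaled by TMM. With 3 against 3 libraries an exact permutation test of one gene cannot go below 0.1, so none is given. Replicate pairs differed beyond sampling noise (chi-square per degree of freedom of at least 5.35), so none was counted as a duplicate. Sequence sharing used 100-base stretches of GENCODE release 29 transcripts. Gene positions are those of the deposited table, whose build is not stated; all 242 genes were found in GENCODE release 29 (GRCh38), 111 with the same start and end.

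Genes named were PUS1, TRIM28, SETDB1 and the 4 corepressor genes of smallest p; called members; the 4 largest rises and falls without overlap; the 4 highest FPKM; the smallest p in each cluster; the 4 smallest p in each direction without shControl replicate 2; and 2 relatives. Other genes were named after their values were seen. Members, lists, rules and tests were chosen with earlier results of these data known. Alternatives were DESeq2 1.42.0, limma 3.58.1 on log2(FPKM + 1) and log2(FPKM + 0.1), other scalings and filters, length and GC trends, a replicate block and each library left out. The statistics were tested on simulated data. One marker gene of the lists is not reported here.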

Additional observations from a re-analysis of the deposited data

How the results depend on the processing

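ZNF114 kept its direction in all 18 fits (1.87 to 2.12) and was called in 17, the exception being the fit without shPUS1 replicate 3. The family median stayed between -0.073 and 0.072. The cause of each change below was not tested unless the setting's own construction shows it. Leaving out each library in turn gave 0 to 2813 genes called, 0 to 497 with a doubling or halving, 0 to 21 members and 0 to 5 members with a doubling or halving. The lowest came without shPUS1 replicate 3 (edgeR, 2581 genes and 16 members at an unadjusted p under 0.05) and the highest without shControl replicate 2; without shControl replicate 1, shPUS1 replicate 1 and shPUS1 replicate 2 the fits called 11, 11 and 6 genes. PUS1 ran over -1.86 to -1.20 and lost its call without shControl replicate 1 (-1.78) and without each shPUS1 library (-1.74 to -1.59). Cluster medians ran over -0.18 to -0.0094 (cluster 2), -0.17 to 0.054 (cluster 3), -0.30 to 0.047 (cluster 4), -0.61 to -0.33 (cluster 5) and -0.068 to 0.19 (cluster 9), and those of the other clusters moved by less than the spread between libraries.

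Without a filter on low counts 1284 of 27010 genes (4.75%) and 6 members (2.62%) were called (536 and 4 with a doubling or halving), and with DESeq2 1870 genes (12.7%) and 12 members (5.69%), 487 and 5 with a doubling or halving; 11 of these 12 were among the 21 called without shControl replicate 2, from 5 of the same libraries. Removing the length trend called ZNF333 as well (2 members, 0.948%, both at least halved or doubled, against 498 genes, 3.38%). limma on log2(FPKM + 1) called 2 members (1.31%), ZNF114 and ZNF628, and 388 genes (3.37%), 87 with a doubling or halving, cluster 5 at -0.24 and PUS1 at -1.0 (adjusted p = 0.0544). On log2(FPKM + 0.1) it called 250 genes, 112 with a doubling or halving, with cluster 5 at -0.36 and PUS1 at -1.48 (adjusted p = 0.0514). Cluster 5 was also at -0.36 for genes of at least 1 FPKM. With a 2 Mb gap the fifth cluster was at 0.01 and the scattered genes at -0.61, by other membership. ZNF83 (-0.46 to 0.069 with 1 library left out) changed sign without shControl replicate 1 (0.051) and replicate 3 (0.069), and ZNF581 (-0.092 to 0.52) without shControl replicate 2. Other scalings and the GC trend left the count of members at 1.

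Replicate numbers did not pair the samples (correlations of deviations -0.053, -0.026 and -0.19). With a replicate block 18 genes were called, all with a doubling or halving, ZNF114 among them as the single member, and PUS1 was at -1.55 (adjusted p = 0.0969). The table gives no gene type, so the alternative of protein-coding members was run with GENCODE types and, like that of members of at least 1 FPKM, was chosen after seeing the data; both left 1 member called.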
